A study of Homo sapiens with 36 samples.

Results

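Aminoacyl-tRNA synthetases are the enzymes that join each amino acid to its tRNA, and the genes described here are the cytosolic and the mitochondrial members of that family. They were picked by gene name: 35 synthetase genes were asked for, and 34 of the 15891 genes in the table carried 1 of those names. The 34 comprise 19 cytosolic enzymes and 15 mitochondrial ones, which are the genes whose names end in 2. VARS2, the mitochondrial valine enzyme, was not found in the table and is not analysed here.

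The cells are HCT-116 (ATCC CCL-247), a human colorectal carcinoma line, and every group was given or was about to be given 5-fluorouracil (5-FU), a pyrimidine analogue used against colorectal cancer. Cells were sampled on 6 days: D0, before the drug was added, D1 and D2, within the 48 h of 10 µM 5-FU, and D7, D14 and D16, after it. On each day poly(A)-selected RNA was sequenced from the cytoplasm and from the heavy polysomal pool, which holds the sucrose gradient fractions whose mRNAs carry more than 3 ribosomes. With the letters A, B and C, which the labels call batches, that gives 12 groups of 3 libraries and 36 libraries in all. No untreated culture accompanies the later days, so the drug and the time in culture cannot be told apart, and how the cells were handled between D2 and D16 is not given in the sources used here. The labels do not say that the letters are separate cultures, so the p-values measure only the spread between these libraries. Ribosomes were held on their mRNAs with emetine, and nuclei and mitochondria were pelleted before the gradient.

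Each synthetase recognises 1 amino acid and loads it onto the matching tRNAs, which carry it to the ribosome. Human cells keep separate gene sets for the cytosol and for the mitochondrion, whose own ribosomes make subunits of the respiratory chain; both sets are encoded in the nucleus and translated on cytosolic ribosomes. KARS1 and GARS1 make both the cytosolic and the mitochondrial enzyme, and EPRS1 is a fusion that charges both glutamate and proline tRNAs. EPRS1, IARS1, KARS1, LARS1, MARS1, QARS1 and RARS1 are part of the multisynthetase complex, a large assembly held together by the scaffold proteins AIMP1, AIMP2 and EEF1E1. Many cytosolic synthetase genes are known targets of ATF4, the transcription factor of the amino acid response, which binds composite C/EBP-ATF elements.

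The sequences below come from RefSeq (GRCh38.p14) and show that element near the start of synthetase genes, because the genes that hold it are those whose mRNA levels are compared further on. The letters searched were TGATGNAA and their reverse complement TTNCATCA, on both strands, in windows of 250 bases before to 50 bases after the start. Such a window was listed for 30 of the 34 genes. For 9 of these, 2 windows with different starts were listed, and a match in either counted, as it did over all genes. AARS2, LARS1, VARS1 and YARS1 are named only. The element was found in 7 of 16 cytosolic genes and in 1 of 14 mitochondrial genes, against 2.55% of all 10730 genes with a window. Each line gives the gene strand 5′ to 3′ with the match in capitals and 10 bases on each side.

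AARS1, chr16:70289676-70289703, minus strand: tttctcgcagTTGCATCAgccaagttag
CARS1, chr11:3057408-3057435, minus strand: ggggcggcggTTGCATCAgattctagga
GARS1, chr7:30594835-30594862, plus strand: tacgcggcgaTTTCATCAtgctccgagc
IARS1, chr9:92293693-92293720, minus strand: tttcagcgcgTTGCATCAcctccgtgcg
MARS1, chr12:57488054-57488081, plus strand: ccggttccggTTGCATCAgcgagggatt
NARS1, chr18:57621805-57621832, minus strand: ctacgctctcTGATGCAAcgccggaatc
TARS1, chr5:33440957-33440984, plus strand: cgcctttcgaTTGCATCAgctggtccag
YARS2, chr12:32756077-32756104, minus strand: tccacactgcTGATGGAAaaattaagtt

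In MARS1 the match began 4 bases before the start, in CARS1 2, in IARS1 13 and in GARS1 33 bases before it, and in TARS1 and NARS1 it began 2 and 14 bases after it. In AARS1 it lay 187 bases before the start and in YARS2 197. These distances are from the start whose window held the match. GARS1 and TARS1 each had another listed start, farther upstream, whose window held no match. The promoter of MARS1, the gene of the methionine enzyme, is shown up to 10 bases past the start because MARS1 was among the genes that fell most on D1 and D2.

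MARS1, chr12:57487818-57488077, plus strand: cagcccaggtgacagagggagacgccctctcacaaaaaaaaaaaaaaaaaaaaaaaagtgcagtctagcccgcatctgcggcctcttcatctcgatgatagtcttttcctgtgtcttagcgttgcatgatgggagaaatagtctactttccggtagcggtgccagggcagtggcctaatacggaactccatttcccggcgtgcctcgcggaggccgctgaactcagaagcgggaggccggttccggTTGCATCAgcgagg

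HARS1 and HARS2, the cytosolic and mitochondrial histidine enzymes, are transcribed in opposite directions, with 84 bases between these RefSeq starts on chromosome 5. In GENCODE 29 the 2 genes overlap instead: HARS1, on the minus strand, reaches 140691862 and HARS2, on the plus strand, begins at 140691426. The stretch between the RefSeq starts is shown with 10 bases on each side, in the direction of HARS2. The capitals mark 2 matches to the core of ETS factor sites, searched as CCGGAAG and CTTCCGG.

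HARS1 and HARS2, chr5:140691360-140691465, plus strand: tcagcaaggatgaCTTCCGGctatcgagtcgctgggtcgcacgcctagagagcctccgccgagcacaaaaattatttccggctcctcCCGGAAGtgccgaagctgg

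The ETS core was present in 16 of the 30 synthetase genes with a window and in 22.1% of all genes with a window. The counts were alike in the classes, 9 of 16 cytosolic and 7 of 14 mitochondrial. The NRF1 site was found in 6 of the 30 genes against 13.4% of all, the E-box CACGTG in 4 against 12.5%, and CCAAT in 16 against 43.0%. A match describes these letters only and is not a measured binding site.

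Values are the deposited normalised counts: reads per gene, each library divided by its own size factor. The libraries held 41.0 to 103.6 megareads assigned to genes in the cytoplasm, where D2 C was highest and the next held 55.2, and 46.1 to 55.7 megareads in the heavy pool. Cytoplasmic libraries scattered more around their group means than heavy pool libraries did, with SDs over genes of 0.24 to 0.66 against 0.16 to 0.25 on the log2 scale. Cytoplasmic libraries D14 B and D16 B stood apart from A and C along the GC content of the transcripts, with r = 0.74 and 0.69 between their deviation and GC across 15782 genes. D7 A had the largest share of ribosomal protein reads, 22.8%. Of 7 colorectal epithelial markers 6 were listed, VIL1 being the other, and of 10 markers of blood, fibroblast and endothelial cells only COL1A1 was listed.

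Before the drug, cytosolic synthetase mRNAs were the more abundant class. Exon length here is that of all annotated exons of a gene merged, which can exceed the length of its main mRNA, so the ranking depends on the annotation. Per kilobase of exon, the cytosolic enzymes lay between 542 and 4368 normalised counts in D0 cytoplasm (median 1764) and the mitochondrial enzymes between 56.7 and 1490 (median 211), with a median of 152 over all genes. FARSA, the catalytic subunit of the cytosolic phenylalanine enzyme, was highest at 4368 ± 391 (SD, n = 3), followed by GARS1 at 3842 ± 240; their ranges over the libraries overlapped. FARSB, the other subunit, stood at 1764 ± 82.5 per kilobase. IARS2, the mitochondrial isoleucine enzyme, was the most abundant of its class at 1490 ± 122, and its range overlapped that of the cytosolic WARS1 at 1505 ± 197. WARS2, the mitochondrial tryptophan enzyme, was lowest at 56.7 ± 11.8. In the heavy pool the medians per kilobase were 3237 for cytosolic and 507 for mitochondrial enzymes, and FARSA was again highest at 9036 ± 858, above GARS1 in every library.

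At D0 synthetase mRNAs were concentrated in the heavy pool. On the log2 scale of the normalised counts, 16 cytosolic and 12 mitochondrial enzymes were higher in the heavy pool than in the cytoplasm at an adjusted p below 0.05, which from here on is the meaning of called, and 26.7% of all 15891 genes were. Fold changes and differences are on the scale log2(value + 1), which understates the change of low genes. The largest differences were 1.37 for MARS2 and SARS2, 1.27 for EARS2, 1.26 for LARS2 and 1.12 for MARS1, the first 4 of these being mitochondrial enzymes; the call of SARS2 was lost without letter C (adjusted p = 0.116 by limma). RARS2, the mitochondrial arginine enzyme, was not called at −0.22 (limma, adjusted p = 0.431), nor were CARS2 at 0.18, EPRS1 at 0.19, WARS2 at 0.33, TARS1 at 0.34 and QARS1 at 0.35. A value of the heavy pool is a share of that pool, since the total amount of polysomes was not measured.

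Synthetase mRNAs fell in the heavy pool during the drug. At D2, all 19 cytosolic enzymes and 14 of 15 mitochondrial enzymes were called lower than at D0 (34.5% of 15852 genes were called lower and 30.4% higher), with median log2 changes of −1.32 and −1.0 against −0.03 over all genes. The summed level of the 34 mRNAs in the heavy pool at D2 was 0.389 of that at D0. PARS2, the mitochondrial proline enzyme, was the exception, with 781.6, 833.2 and 787.4 normalised counts in A, B and C at D2 against 885.0, 955.2 and 975.6 at D0; its libraries did not overlap, but it was not called (log2 change −0.23, limma adjusted p = 0.0852).

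AARS1, the alanine enzyme on the minus strand of chr16:70252295-70289543 (gene coordinates here are GRCh38, GENCODE 29), changed most at D2. Its heavy pool values in A, B and C were 18557, 19299 and 21916 normalised counts at D0 and 3050, 3423 and 4002 at D2, so that every D2 library was far below every D0 library. The log2 change was −2.52 (SE 0.18, limma adjusted p = 3.26e-11), which is 5.73-fold lower. CARS1, the cysteine enzyme, went from 9937, 11453 and 12592 to 2506, 2695 and 3120, a change of −2.03 (SE 0.13, adjusted p = 4.18e-12).

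MARS1, on the plus strand of chr12:57475445-57517569, fell early. In A, B and C its heavy pool values were 22202, 23674 and 26988 at D0, 8117, 9767 and 5909 at D1 and 5490, 6066 and 6963 at D2, with no overlap of either day with D0. The log2 change was −1.64 at D1 (SE 0.15, limma adjusted p = 7.13e-09), the largest fall of any synthetase on that day, and −1.98 at D2 (SE 0.15, adjusted p = 6.47e-11). MARS1 shares 355 exon bases with DDIT3, a stress gene on the opposite strand; the library kit marks strand by dUTP, but the strand setting of the counting is not given in the sources used here. DDIT3 moved the other way in the heavy pool at D2, from 95.2, 133.4 and 122.2 to 217.5, 176.1 and 218.9 normalised counts (log2 change 0.81, adjusted p = 5.42e-05), at levels far under those of MARS1.

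GARS1, the glycine enzyme of both compartments, had 22006, 25324 and 29085 normalised counts in the heavy pool at D0 and 6691, 6024 and 6707 at D2, a log2 change of −1.97 (SE 0.10, limma adjusted p = 1.86e-13). The next falls at D2 were those of the tyrosine enzyme YARS1, −1.84, and the threonine enzyme TARS1, −1.79. KARS1, the lysine enzyme of both compartments, fell less, from 16880, 17485 and 19604 to 7839, 7624 and 8407 (−1.18, adjusted p = 1.23e-10). The smallest cytosolic changes were those of QARS1, −0.71, SARS1, −0.76, and HARS1, −0.91.

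Among the mitochondrial enzymes at D2, FARS2 and LARS2 fell most, both by 1.75 on the log2 scale. LARS2, the mitochondrial leucine enzyme (chr3:45388506-45549421, plus strand), had 3280, 3250 and 3858 normalised counts in the heavy pool at D0 and 1019, 1022 and 1043 at D2. HARS2 fell from 4215, 4249 and 4702 to 1637, 1591 and 1715 (−1.41, limma adjusted p = 5.15e-12), and IARS2 from 11161, 10547 and 10832 to 7100, 6237 and 6160 (−0.74, adjusted p = 1.27e-07). MARS2 and WARS2 changed least of the called genes, at −0.30 and −0.35.

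**Figure D1:**
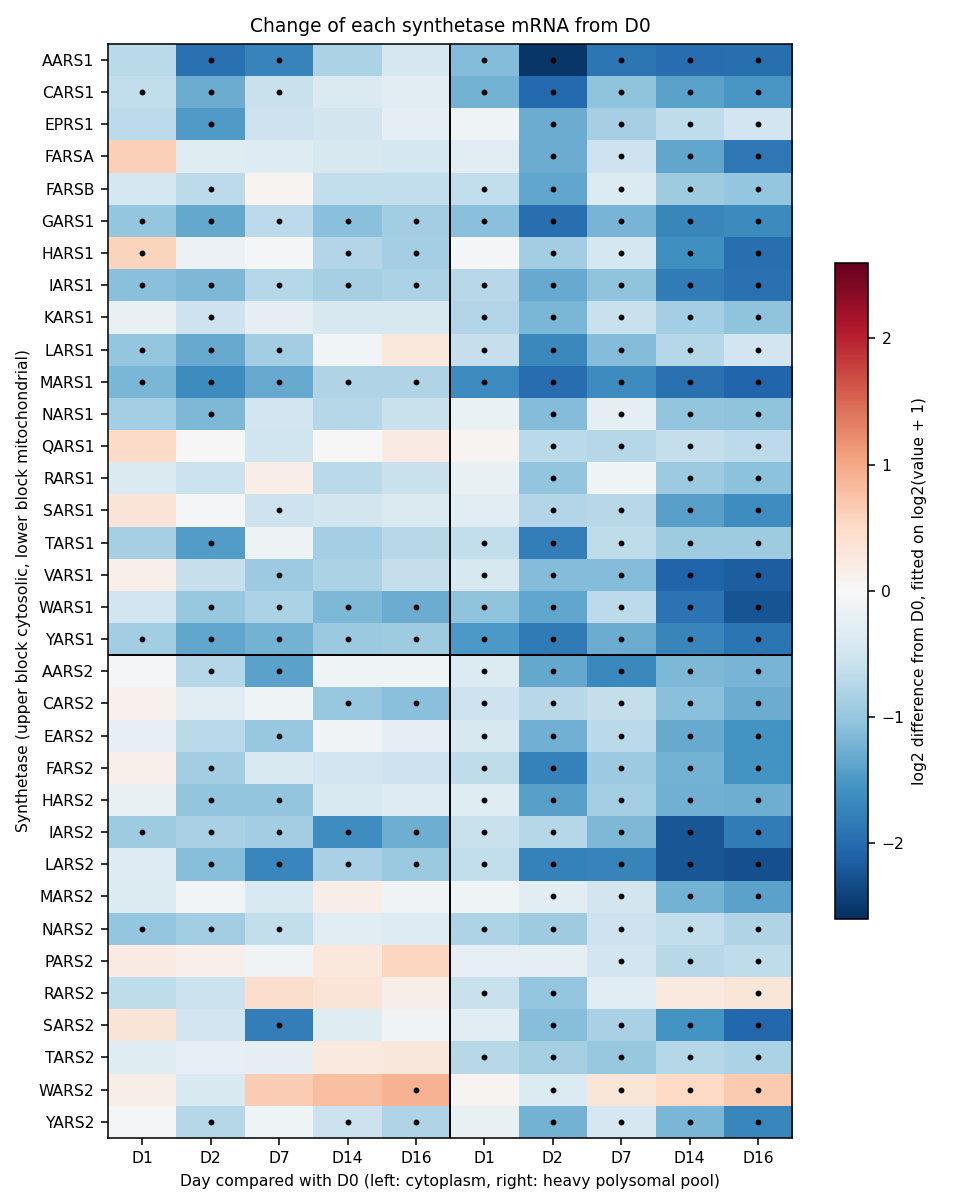
Log2 change from D0 of each synthetase mRNA (rows, cytosolic above mitochondrial) on each later day in the cytoplasm and in the heavy pool (columns), with dots on the changes called at an adjusted p below 0.05. In the heavy pool at D2 every row but PARS2 carries a dot for a fall, with AARS1 at −2.52 the largest.

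The fall was already present after 1 day of drug. At D1, 12 cytosolic and 10 mitochondrial enzymes were called lower in the heavy pool (26.9% of all genes were), with medians of −0.64 and −0.41 against −0.06 over all genes. After MARS1 came YARS1, −1.49 (SE 0.10, limma adjusted p = 5.8e-11), and CARS1, −1.23, then AARS1, −1.13, GARS1, −1.09, and WARS1, −1.04. HARS1 was at 11763, 13848 and 12277 normalised counts in A, B and C at D1, among the D0 values of 11972, 13099 and 14067, and was not called (−0.05, adjusted p = 0.735). HARS2 was called at −0.32 (adjusted p = 0.00597), a call lost when A (adjusted p = 0.0901) or C (0.0571) was left out and under scaling to the total count (−0.12, adjusted p = 0.214).

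At D7 the heavy pool held 0.540 of the summed D0 level. There, 18 cytosolic and 13 mitochondrial enzymes were called lower (36.5% of all genes) and WARS2 was called higher (27.0%), with medians of −0.74 and −0.70. AARS1 was at −1.88 (SE 0.18, limma adjusted p = 6.86e-09), LARS2 at −1.74, AARS2, the mitochondrial alanine enzyme, at −1.67 and MARS1 at −1.64. RARS1, the cytosolic arginine enzyme, was the cytosolic member not called, at −0.11.

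The lowest heavy pool levels of the sum over the 34 genes came last, at 0.370 of D0 at D14 and 0.346 at D16. Many single genes, AARS1 and TARS1 among them, were lowest earlier, at D2. At each of those days all 19 cytosolic and 13 mitochondrial enzymes were called lower (37.6% and 36.6% of all genes). WARS2 was called higher at D14 and both WARS2 and RARS2 at D16, against 34.4% and 36.2% of all genes called higher. The medians of the cytosolic and mitochondrial enzymes were −1.40 and −1.19 at D14 and −1.61 and −1.30 at D16.

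WARS1, the cytosolic tryptophan enzyme and a known interferon-induced gene (chr14:100333788-100376805, minus strand), fell, partly returned and fell again. In A, B and C the heavy pool held 15789, 17815 and 19308 normalised counts at D0, 8094, 9038 and 8463 at D1 and 6845, 6631 and 7082 at D2. It then held 9578, 10101 and 13366 at D7, 4897, 4422 and 4650 at D14 and 3617, 3952 and 3528 at D16. All D7 libraries lay between those of D0 and D2, and D14 and D16 lay below every earlier day. The log2 change at D16 was −2.25 (SE 0.10, limma adjusted p = 3.52e-14), or 4.76-fold lower, and the change from D7 to D14 alone was −1.23 (adjusted p = 2.96e-09). WARS1 shares 287 exon bases with WDR25 on the opposite strand.

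WARS2 (chr1:119031216-119140671, minus strand) also fell at D2 but went the other way at D14 and D16. Its heavy pool values were 250.1, 259.9 and 303.0 at D0, 221.3, 192.3 and 223.5 at D2, and 429.3, 423.7 and 443.3 at D16, so that D16 lay above D0 in every library after D2 had lain below it. The log2 changes were −0.35 at D2 (limma adjusted p = 0.011), 0.52 at D14 (adjusted p = 0.000334) and 0.68 at D16 (SE 0.12, adjusted p = 1.72e-05). Its rise at D7, 0.31, was no longer called when A (adjusted p = 0.262) or B (adjusted p = 0.15) was left out. WARS2 shares 180 exon bases with WARS2-AS1 on the opposite strand.

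RARS2 had 1410, 1452 and 1646 normalised counts in the heavy pool at D0, 758.9, 721.9 and 773.1 at D2 and 1778, 1654 and 2246 at D16. It was low in all D2 libraries and high in all D16 libraries, with a log2 change at D16 of 0.32 (SE 0.12, limma adjusted p = 0.0217). Without letter A the adjusted p was 0.0901 and without letter C 0.0621.

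The largest late fall besides WARS1 was that of LARS2. Its D16 values in the heavy pool were 766.3, 721.8 and 641.6 normalised counts in A, B and C, all far below the D0 values given above, and the log2 change was −2.28 (SE 0.12, limma adjusted p = 2.16e-13). VARS1, the cytosolic valine enzyme, went from 29343, 28610 and 32681 at D0 to 7328, 7596 and 5789 at D16 (−2.14, SE 0.14, adjusted p = 4.08e-12). IARS2 was lowest at D14, with 2352, 2355 and 2295 against the D0 values given above (−2.22, SE 0.09, adjusted p = 7.82e-15), and was at 2940, 3179 and 3068 at D16. HARS1 at 3247, 3389 and 3307 and MARS1 at 5982, 5894 and 5532 were at −1.97 and −2.06 of their D0 levels on the log2 scale at D16, and SARS2 was at −2.04.

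EPRS1 and LARS1, of the multisynthetase complex, changed least of the cytosolic enzymes at D16, both by −0.49. EPRS1 had 6706, 6697 and 8162 normalised counts in the heavy pool at D0, 2728, 3109 and 2915 at D2 and 4672, 5745 and 4973 at D16, low in every library at D2 and between the earlier levels at D16. Its call at D16 (limma adjusted p = 0.000356) was lost under upper-quartile scaling (−0.16, adjusted p = 0.196) and under scaling to the total count (−0.06, adjusted p = 0.621). For the 7 enzymes of the complex the median change was −1.30 at D2, near the −1.35 of the other 12 cytosolic enzymes. At D14 and D16 the medians were −0.89 and −1.04 for the complex against −1.50 and −1.75 for the others. The members of the complex were not alike: from D0 to D16 the heavy pool mean of MARS1 went from 24288 to 5803 normalised counts. That of IARS1 went from 31477 to 8212, unlike the small changes of EPRS1 and LARS1.

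Between D7 and D14, 14 cytosolic and 9 mitochondrial enzymes were called lower in the heavy pool (28.9% of all genes), and LARS1, RARS2 and AARS2 were called higher (29.5%). After WARS1, the largest falls over that interval were −1.13 for HARS1 and −1.05 for IARS2. Between D14 and D16, YARS2 (−0.51), FARSA (−0.50), HARS1 (−0.39), FARS2 (−0.34) and WARS1 (−0.33) were called lower (10.2% of all genes) and IARS2 (0.39) higher (8.68%). Without letter A none of these 6 was called, without letter B 1 was, and without letter C 8 synthetases were. Over all days together, every one of the 34 genes was called as changing in the heavy pool, as were 95.1% of all genes.

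**Figure D2:**
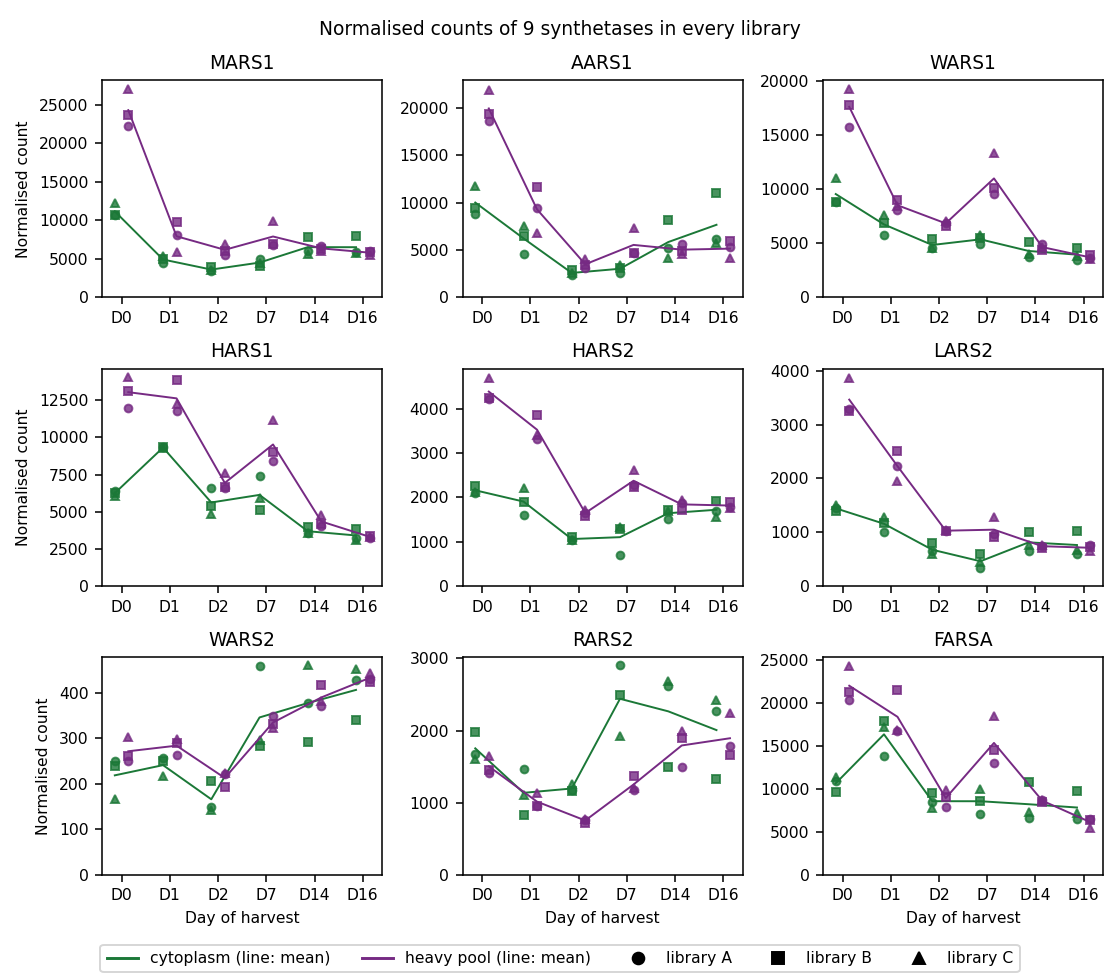
Normalised counts (linear axes from 0, a scale of its own for each gene) by day for MARS1, AARS1, WARS1, HARS1, HARS2, LARS2, WARS2, RARS2 and FARSA, with 1 point per library in the cytoplasm and the heavy pool and lines through the means. AARS1 and MARS1 are low from D2 on in the heavy pool, where WARS1 falls from D7 to D16 and WARS2 ends above its D0 level.

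These falls are relative to the authors' size factors, under which the median gene did not move by more than 0.11 on any day. Scaling each library to its total count moves the median of all heavy pool genes up, by 0.19, 0.38, 0.29, 0.32 and 0.42 at D1, D2, D7, D14 and D16, and the share of the called genes that were higher at D2 goes from 46.8% to 71.7% and at D16 from 49.7% to 70.7%. Under that scaling 31 synthetases were still called lower at D2 and none higher, with a median of −0.86 over the 34, and 29 were lower and 2 higher at D16, with a median of −1.03. At D1, D7 and D14 it gave 19, 25 and 32 lower and 1, 1 and 2 higher. The share of the called heavy pool genes that were higher went from 42.7% to 67.9% at D1, from 42.5% to 64.5% at D7 and from 47.8% to 65.0% at D14. Fewer cells that make an mRNA and less of it in each cell cannot be told apart in these bulk samples.

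**Figure D3:**
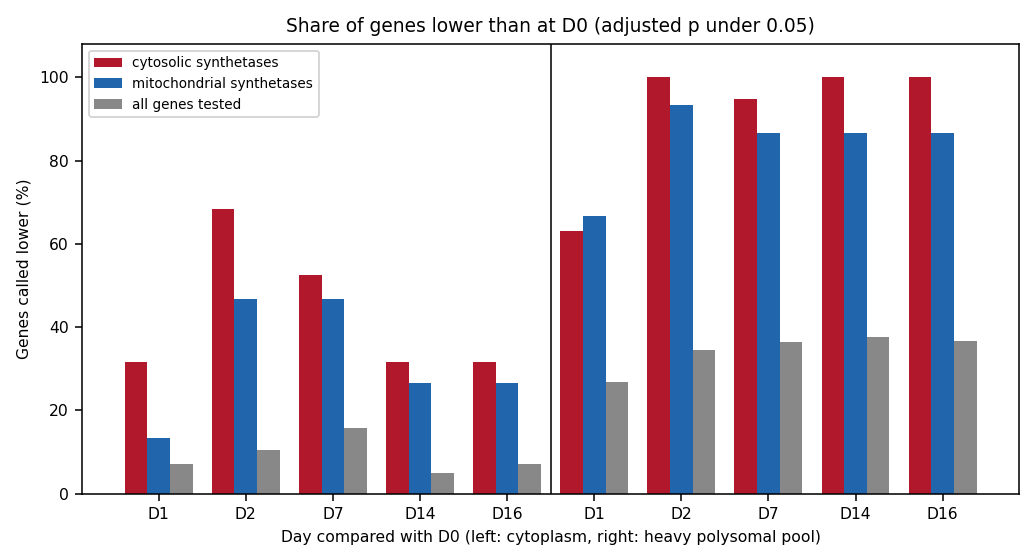
Percent of cytosolic synthetases, of mitochondrial synthetases and of all tested genes that were called lower than at D0, by day, in the cytoplasm and in the heavy pool. In the heavy pool at D2 and later, the synthetase shares lie far above the 34.5% to 37.6% of all genes.

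In the cytoplasm the synthetase mRNAs were also lower after D0, with more scatter between libraries. At D2, 13 cytosolic and 7 mitochondrial enzymes were called lower (10.6% of all genes), with medians of −1.16 and −0.70, and the summed level was 0.553 of D0. AARS1 had 8815, 9452 and 11736 normalised counts in A, B and C at D0 and 2338, 2858 and 2543 at D2, with no overlap, for a log2 change of −1.95 (SE 0.27, limma adjusted p = 4.08e-05). MARS1 went from 10648, 10651 and 12189 to 3400, 3918 and 3517 (−1.63, SE 0.17, adjusted p = 2.29e-06), and GARS1 from 15056, 17024 and 15771 to 5874, 6407 and 6580 (−1.34, adjusted p = 2.6e-06). EPRS1 went from 5993, 7045 and 5807 to 1883, 1790 and 3414, a change of −1.47 (adjusted p = 0.00336) that was not called without letter A (adjusted p = 0.0556). Without letter C, 11 synthetases in place of 20 were called at D2.

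At D1 in the cytoplasm, 6 cytosolic and 2 mitochondrial enzymes were called lower (7.09% of all genes) and HARS1 was called higher (10.9%). With the letter as a block, 14 synthetases were called in place of these 9. Without letter B 5 were called and without letter C 2. Without D14 B and D16 B, which enter through the shared estimate of spread, 16 were called, and 17 when only D0 and D1 were fitted. MARS1 was at 4433, 4955 and 5356 in A, B and C (−1.18, SE 0.17, limma adjusted p = 0.000157), and GARS1 at 8468, 7510 and 7990 (−1.0, adjusted p = 0.000144), both below all D0 libraries. Scaling to total counts moved the cytoplasmic median of all genes by −0.24 at D1, −0.11 at D2, −0.32 at D7, 0.15 at D14 and 0.16 at D16. The share of called genes that were higher went under it from 60.5% to 46.1% at D1, from 53.9% to 36.2% at D7, from 60.5% to 77.5% at D14 and from 56.6% to 72.8% at D16.

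The histidine pair parted at D1 in the cytoplasm. HARS1 rose from 6381, 6287 and 6078 normalised counts in A, B and C to 9351, 9345 and 9257, above D0 in every library, for a log2 change of 0.58 (SE 0.17, limma adjusted p = 0.0242). That call did not survive the loss of letter A (adjusted p = 0.0615), B (0.137) or C (0.235), nor scaling to the total count (0.33, adjusted p = 0.111). HARS2 was at 1605, 1892 and 2222 at D1 against 2092, 2262 and 2128 at D0, overlapping, and was not called (−0.19, adjusted p = 0.549). The genes share 437 exon bases on opposite strands. By D16 HARS1 was at 3257, 3829 and 3119 in the cytoplasm (−0.88, adjusted p = 0.00173, and 0.104 without letter C). FARSA, with 13827, 17951 and 17249 at D1 against 10932, 9570 and 11405 at D0, was also higher in every library but not called (0.61, adjusted p = 0.0525).

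At D7, 10 cytosolic and 7 mitochondrial enzymes were called lower in the cytoplasm (15.7% of all genes), and without letter C 6 synthetases in all. AARS1 was at −1.73, AARS2 at −1.40 and MARS1 at −1.31 on the log2 scale, and LARS2 at −1.69. The largest value, −1.80 for SARS2, the mitochondrial serine enzyme, rests on 1 library: its D7 values were 33.1, 275.4 and 169.3 normalised counts against 312.3, 477.8 and 448.1 at D0, and without D7 A the change was −0.91 (limma adjusted p = 0.146).

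At D14 and D16 the cytoplasm had 6 cytosolic and 4 mitochondrial enzymes called lower each day (5.05% and 7.26% of all genes), and WARS2 was called higher at D16 (9.47%). With the letter as a block 18 synthetases were called at D14. Without letter C 1 synthetase was called at D14 and 2 at D16, and without letter A 7 on each day; without D14 B and D16 B the count at D14 was 16. IARS2 had 5944, 6794 and 5882 normalised counts in A, B and C at D0 and 2375, 1585 and 2232 at D14 (−1.61, SE 0.20, limma adjusted p = 4.39e-05). WARS1 went from 8848, 8835 and 11017 to 3431, 4581 and 3857 at D16 (−1.28, SE 0.18, adjusted p = 0.000121). WARS2 rose from 250.1, 238.4 and 166.0 to 426.6, 338.7 and 452.0 at D16, above D0 in every library (0.90, adjusted p = 0.0268), a call lost without letter A (0.0914), B (0.0593) or C (0.349).

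The library that differed at D14 and D16 in the cytoplasm was B, and it did so along GC content. EPRS1, with 43.2% GC, was at 6317, 2498 and 5841 normalised counts in A, B and C at D14 and at 6715, 3274 and 6688 at D16, low in B on both days. VARS1, with 62.6% GC, was at 7485, 14035 and 7359 at D14, high in B. AARS1, with 53.5% GC, was at 6204, 10981 and 5781 at D16, and its change from D0 was not called (−0.44, limma adjusted p = 0.295). In the heavy pool no library's deviation correlated with GC beyond 0.39 in size, and the class medians of GC were 48.6% for cytosolic and 50.8% for mitochondrial enzymes. What part GC had in the cytoplasmic values was not tested.

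From D7 to D14 the cytoplasm showed 3 cytosolic and 4 mitochondrial enzymes called higher (16.5% of all genes) and 4 and 2 called lower (19.1%). Of the called changes, the largest were 1.28 for AARS2, 0.90 for AARS1 and 0.89 for EARS2 among the rises and −0.88 for RARS1 and CARS2 among the falls. SARS2, at 1.49, was not called (limma adjusted p = 0.0513), though it was with the letter as a block (0.00556), and its lowest library was the D7 A given above. Without letter A 2 of the 34 were called and without letter C 2, without letter B 7, without D7 A 6, and 5 when only D7 and D14 were fitted. Scaling to the total count, which moved the median of all genes by 0.47 and the share of called genes that were higher from 46.4% to 76.2%, gave 14 synthetases higher and none lower. From D14 to D16, limma called none of 34 synthetases and 0% of all genes in the cytoplasm, and no synthetase had an unadjusted p below 0.05; edgeR and DESeq2 also called 0. Over all days together 28 synthetases were called in the cytoplasm against 61.5% of all genes, 17 without letter A and 12 without letter C.

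The cytosolic and mitochondrial enzymes of the same amino acid were compared within each library, as the difference of their log2 values, in 16 pairs; EPRS1 serves in 2 pairs and FARS2 in 2. In the heavy pool at D2 this difference was lower than at D0 in 9 pairs and higher in 4, with no overlap between the D2 and the D0 libraries. The counts of pairs describe these 16 only: in the same comparison 34.5% of all genes were called lower and 30.4% higher, and how often other pairs of genes do not overlap was not computed. The difference between MARS1 and MARS2 went from 3.84, 3.99 and 3.95 in A, B and C at D0 to 2.13, 2.32 and 2.28 at D2, a change of −1.68. CARS1 against CARS2 changed by −1.30, AARS1 against AARS2 by −1.19, EPRS1 against PARS2 by −1.07 and WARS1 against WARS2 by −1.01. The other way went HARS1 against HARS2, by 0.50, and FARSA against FARS2, by 0.45.

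At D16 the tryptophan pair had moved furthest. The heavy pool difference between WARS1 and WARS2 went from 5.97, 6.09 and 5.99 in A, B and C at D0 to 3.07, 3.22 and 2.99 at D16, a change of −2.93. RARS1 against RARS2 changed by −1.39 and HARS1 against HARS2 by −0.70, the latter from 1.51, 1.62 and 1.58 to 0.86, 0.83 and 0.91. The leucine pair moved in the other direction, from 1.04, 0.96 and 1.00 to 2.62, 2.90 and 2.85 (1.79), as did EPRS1 against EARS2 (1.07). In all, the difference was lower than at D0 in 7 pairs, higher in 4, and 5 overlapped. At D1, D7 and D14 the counts of lower and higher differences were 5 and 5, 4 and 6, and 8 and 5. For the cytoplasm they were 8 and 3 at D1, 8 and 2 at D2, 5 and 2 at D7, 8 and 2 at D14, and 6 and 3 at D16. These counts too describe the listed pairs only, since how often other pairs of genes do not overlap was not computed.

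**Figure D4:**
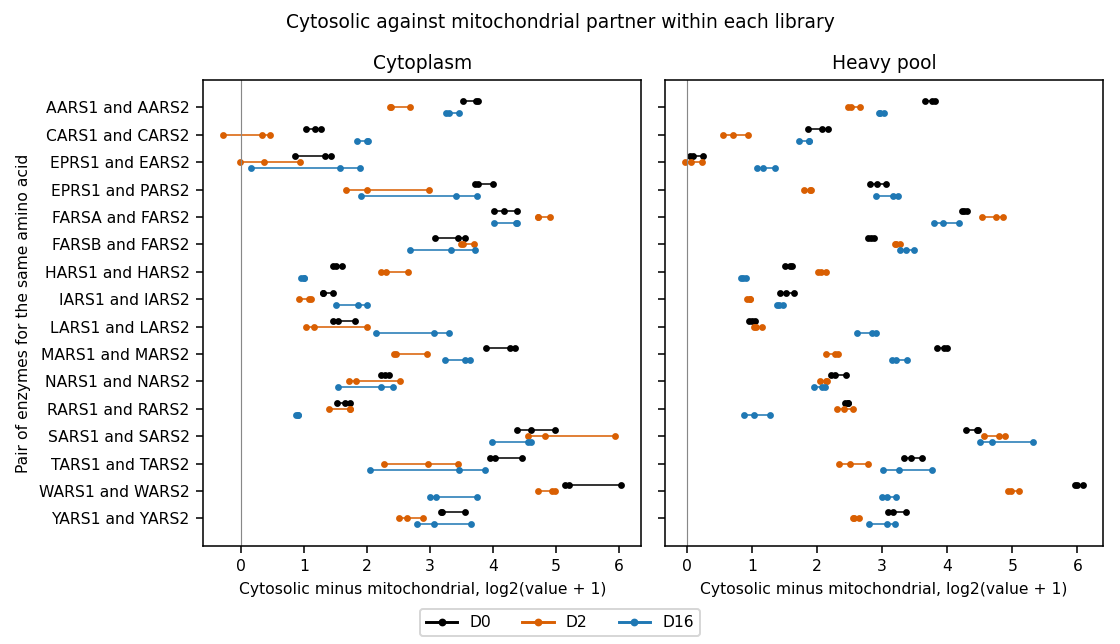
Difference in log2 normalised counts between the cytosolic and the mitochondrial enzyme of each of 16 pairs at D0, D2 and D16, in the cytoplasm and the heavy pool, with 1 point per library. The heavy pool points of WARS1 and WARS2 drop from near 6 at D0 to near 3 at D16, while those of LARS1 and LARS2 rise from near 1.00 to 2.79 on average.

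Under the authors' size factors, the concentration of synthetase mRNAs in the heavy pool was smaller on every later day than at D0, and smallest at D14 and D16. The median difference between heavy pool and cytoplasm over the 34 genes, on the log2 scale, was 0.92 at D0, 0.59 at D1, 0.37 at D2, 0.67 at D7, 0.08 at D14 and −0.06 at D16, where the median of all genes stayed between 0.01 and 0.14. The spread of that difference over all genes also shrank, from an SD of 0.76 at D0 and 1.09 at D7 to 0.42 at D14 and 0.36 at D16, for the mean of the 3 letters. By letter it went from 0.90 at D0 to 0.50 and 0.41 at D14 and D16 in A and from 0.78 to 0.52 and 0.46 in C, but in B only from 0.80 to 0.75 and 0.72. The synthetases called higher in the heavy pool than in the cytoplasm were 13 cytosolic and 10 mitochondrial at D1 (31.3% of all genes), 6 and 8 at D2 (23.6%) and 12 and 11 at D7 (30.2%). CARS2 was called lower in the heavy pool at D1 (27.0%), and RARS2 at D2 (22.6%) and D7 (26.4%). Without letter B 16 synthetases were called at D1, and without letter C 10 at D2. At D14 and D16 limma called none, against 1.23% and 0.850% of all genes, while 2 and 3 synthetases had an unadjusted p below 0.05 and edgeR and DESeq2 called 0. With scaling to the total count 28 were called at D2 and 2 at D14. The median difference over the 34 genes was then 0.91 at D0, 1.02 at D1, 0.85 at D2, 1.28 at D7, 0.24 at D14 and 0.19 at D16.

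The change of that difference from D0, which is the interaction of fraction and day, was called lower for 23 synthetases at D14, 13 cytosolic and 10 mitochondrial (16.7% of all genes), and for 25 at D16, 14 and 11 (17.9%). At D14 the count was 7 without letter B, 10 without letter C and 9 with scaling to the total count; at D16 it was 16 without letter C. MARS2, the mitochondrial methionine enzyme, had differences of 1.57, 1.44 and 1.09 in A, B and C at D0 and of 0.13, −0.16 and −0.03 at D14, a change of −1.39 (SE 0.28, limma adjusted p = 0.000989). LARS2 had 1.18, 1.23 and 1.36 at D0 and 0.19, −0.52 and 0.00 at D14 (−1.37, adjusted p = 0.00102). MARS1 went from 1.06, 1.15 and 1.15 to 0.14, −0.31 and 0.10 (−1.14, adjusted p = 0.00108). For all 3 genes no D14 library overlapped D0.

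At D16 the largest changes of the difference were those of SARS2, −1.95, AARS1, −1.53, VARS1, −1.51, FARSA, −1.39, LARS2, −1.32, and EARS2, −1.31. AARS1 went from 1.07, 1.03 and 0.90 at D0 to −0.22, −0.88 and −0.49 at D16 (limma adjusted p = 0.00147), and VARS1 from 0.93, 1.00 and 0.75 to −0.19, −1.15 and −0.53 (adjusted p = 0.00252). In both genes B was lowest at D16 and the cytoplasmic value of B highest. SARS2 was called (adjusted p = 0.0221) but not without letter B (0.106) or C (0.192), nor without D14 B and D16 B (−1.59, adjusted p = 0.0741). RARS2 at 0.17 was the only synthetase above 0.

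During the drug few of these changes were called. At D1 FARSA (−0.88) and KARS1 (−0.56) were called lower (3.37% of all genes), and with the letter as a block 5 synthetases were, with edgeR none and with DESeq2 8. At D2 FARSA (−0.99), HARS1 and CARS1 (both −0.75), and KARS1 and GARS1 (both −0.63) were called (2.03%). KARS1, at 0.46, 0.51 and 0.63 in A, B and C at D0, was at −0.14, 0.07 and −0.02 at D1 and at −0.24, −0.11 and 0.05 at D2, with no overlap. Leaving out any letter, or scaling to the total count, left no call on either day. Upper-quartile scaling left none at D2. Fitting only the groups compared gave 11 calls at D1, and leaving out D14 B and D16 B gave 10 at D1 and 8 at D2; leaving out D2 C gave 5 and 8, and leaving out D7 A gave 5 at D1. At D7 limma called none (3.95% of all genes were called in either direction), 8 synthetases had an unadjusted p below 0.05, edgeR called none and DESeq2 called GARS1 (−0.55). Scaling to the total count turned the median change over the 34 genes from negative to 0.13, 0.01 and 0.34 at D1, D2 and D7, and kept it negative, at −0.58 and −0.71, at D14 and D16. It moved the median of all genes by 0.44, 0.49, 0.61, 0.17 and 0.26.

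**Figure D5:**
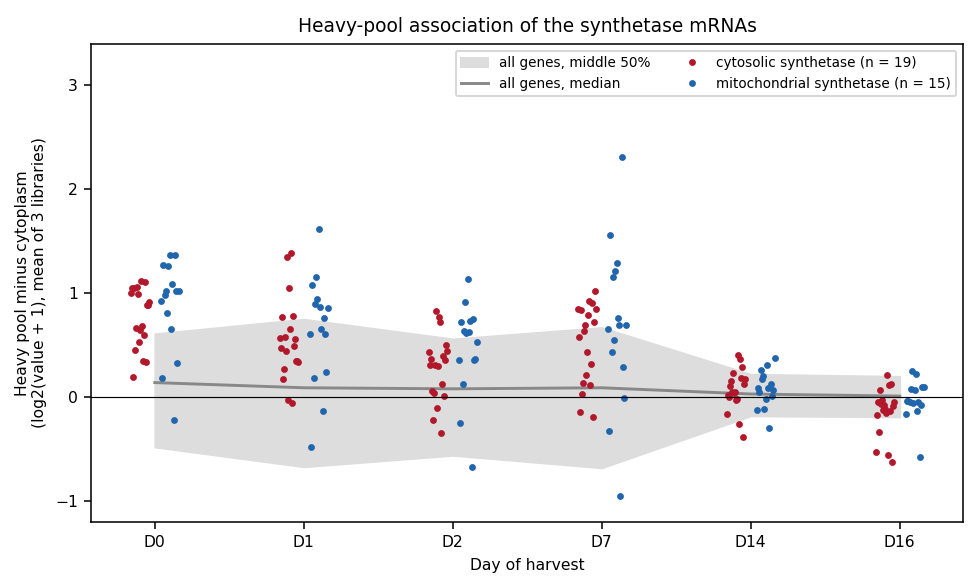
Log2 difference between heavy pool and cytoplasm by day for each synthetase (points, mean of 3 libraries; cytosolic and mitochondrial in separate colours), with the band of the middle 50% of all genes. The points centre near 0.92 at D0 and near 0 at D14 and D16.

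Other genes of tRNA charging were read from lists. Of the 3 scaffold proteins of the multisynthetase complex, AIMP2 fell in the heavy pool, from 4904, 5830 and 6038 normalised counts in A, B and C at D0 to 2721, 3015 and 3138 at D2 (log2 change −0.91, limma adjusted p = 3.7e-08) and further to −1.41 at D16. AIMP1 was at 0.01 at D2 and −0.03 at D16 and EEF1E1 at 0.03 and 0.37, and neither was called on those days. At D2 7 of 7 enzymes of the complex and 1 of 3 scaffolds were called lower in the heavy pool, where 34.5% of all genes were. The scaffold count is near that share. Of 10 other listed charging and editing genes, 3 were called higher and 3 lower at D2 in the heavy pool, near the 30.4% and 34.5% of all genes, and 5 and 2 at D16 (36.2% and 36.6% of all genes). The largest of these falls was that of GATB, a subunit of the mitochondrial amidotransferase that makes glutamine-charged tRNA, with 3912, 3858 and 4279 at D0 and 705.3, 780.9 and 835.8 at D2 (−2.38, adjusted p = 1.33e-14). EEF1A1, which carries charged tRNA to the ribosome, was at −1.03 at D2, EEF1D at −0.45 and EEF1B2 at 0.17.

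The known amino acid response genes of ATF4 other than synthetases mostly fell with them. Of 24 listed, 18 were called lower and 3 higher in the heavy pool at D2 (median −1.13), where 34.5% and 30.4% of all genes were. At D16 the counts were 16 and 4 (median −0.90; 36.6% and 36.2% of all genes). In the cytoplasm at D2, 15 were called lower, against 10.6% of all genes, and 3 higher (median −1.03). Of 15889 genes tested there, 3943 were called, 57.2% of them higher. PHGDH, which opens serine synthesis, went from 26478, 31309 and 30693 normalised counts in the heavy pool at D0 to 2387, 2661 and 3220 at D2 (−3.43, limma adjusted p = 2.34e-14). SLC7A11, the cystine transporter, was at −2.48 and ASNS, asparagine synthetase, at −2.26. ATF3, DDIT3 and SESN2, which other stress pathways also induce, were the 3 that rose, by 2.22, 0.81 and 0.65.

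The mRNA of ATF4 itself had 30752, 33203 and 32092 normalised counts in the heavy pool at D0, 7029, 6618 and 6830 at D2 and 36975, 33491 and 41708 at D16. It was low at D2 and above D0 in every library at D16, with log2 changes of −2.23 (limma adjusted p = 2.03e-15) and 0.22 (adjusted p = 0.032). At D16 PHGDH was at −2.72, SHMT2 at −2.03, PSAT1 at −1.99 and ASNS at −1.78, and DDIT3 at 2.44, ATF3 at 1.64 and CEBPG at 1.07.

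The cytosolic synthetases with a C/EBP-ATF element in the window shown at the outset were lower at D2 than those without. In the heavy pool the 7 genes with a match lay between −2.52 and −1.13 (median −1.97) and the 9 without between −1.36 and −0.71 (median −1.18), all 16 called lower. The cytosolic LARS1, VARS1 and YARS1 had no window and are in neither group. Their mean heavy pool values went from 6925, 30211 and 33707 normalised counts at D0 to 2176, 13834 and 9363 at D2. In the cytoplasm at D2, 7 of 7 with a match were called lower (median −1.34) and 4 of 9 without (median −0.54). At D16 in the heavy pool the medians were −1.65 and −1.07. Over all genes with a window the element made little difference in the heavy pool at D2, where 36.9% of the 274 genes with a match and 36.8% of those without were called lower, with medians of −0.02 and −0.05; in the cytoplasm at D2 the shares were 17.5% and 11.8%. At D16 in the heavy pool the shares over all genes were 37.6% with a match and 41.1% without. Of the 19 listed ATF4 response genes with a window, 8 had a match, and they did not show the same split. In the cytoplasm at D2, 4 of these 8 were called lower (median −0.82) against 8 of the 11 without (median −1.07). Heavy pool counts called lower were 7 of 8 (median −1.13) and 7 of 11 (median −0.89) at D2, and 5 of 8 (median −0.92) and 7 of 11 (median −0.94) at D16. These counts describe the lists, and no test was made of them.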

How the data were processed

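The series holds 36 RNA-seq libraries of HCT-116 cells, 3 letters for each of 6 days in the cytoplasm and the heavy polysomal pool. Per the submitters' processing notes, reads passed through FastQC 0.11.9, cutadapt 3.2, STAR 2.7.9a and featureCounts (Subread 2.0.1) on GRCh38, and DESeq2 1.30.1 is named. The deposited values are a signal table of normalised counts, which the authors made by dividing each gene's read count by 1 size factor per library. Multiplying back gave whole reads for 100% of values within 0.01. The table has 54 columns; 36 matched the labels and 18 matched no sample and were not used. It lists 15891 genes, each above 0 in every library, so genes absent from some library are not seen. Symbols were found for 15856 of the gene IDs, and 15799 were in GENCODE 29, from which exon lengths and overlaps were taken.

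Values were analysed as log2(value + 1) with limma 3.58.1 in R 4.3.3 (moderated by an intensity trend), over genes that reached 10 in 3 or more libraries, with Benjamini-Hochberg adjustment over all tested genes and a threshold of 0.05. Each fraction was fitted alone for changes between days, and both together for the difference between fractions and its change. The fits were tested on simulated reads with the same dispersion for all genes and libraries. The simulation held no letter or GC effect, so it does not speak to these. The letters are called batches in the labels, so they pair libraries; libraries of 1 letter on different days had a mean correlation of their deviations of 0.19 in the cytoplasm (27 of 45 pairs over 0.1) and 0.07 in the heavy pool (20 of 45), and cytoplasm and heavy pool of 1 letter and day 0.00 (5 of 18). The alternatives were the letter as a block, a pseudocount of 10, no filter, a filter at 50, scaling to the total count or upper quartile, fitting only the groups compared, leaving out each letter, and edgeR 4.0.16 or DESeq2 1.42.0 on the recovered reads. Leaving out cytoplasmic libraries D7 A, D14 B with D16 B, or D2 C was chosen after seeing the data.

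Statistics are given for up to 6 called synthetases of largest change per direction and comparison and for WARS1, MARS1, GARS1, KARS1, HARS1, HARS2, EPRS1, LARS2 and IARS2, and for up to 4 called genes of a list per direction, or all of a list of 4 or fewer (a listed gene is not reported here); other synthetases given with values were chosen after seeing them. The members, the lists and the letters searched in promoters were chosen with earlier results of these data known. Promoter windows come from RefSeq (GRCh38.p14) and cover 10730 listed genes.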

Additional observations from a re-analysis of the deposited data

Results flagged for a closer look

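The changes below differed between the heavy pool and the cytoplasm by the test of fraction and day together in limma; each value is the heavy pool change from D0 minus the cytoplasmic change on the log2 scale. At D1 they numbered 2, FARSA (−0.88) and KARS1 (−0.56), and at D2 5, FARSA (−0.99), HARS1 (−0.75), CARS1 (−0.75), KARS1 (−0.63) and GARS1 (−0.63). None of those at D1 and D2 was called when any letter was left out. At D14 there were 23, with the largest at MARS2 (−1.39), LARS2 (−1.37), VARS1 (−1.27), EARS2 (−1.22), AARS1 (−1.16) and MARS1 (−1.14). Of these, AARS1 was not called at D14 without letter A or B, VARS1 without B or C, and EARS2 without B. Scaling to the total count also lost the D14 calls of AARS1, VARS1 and EARS2. At D16 there were 25, with the largest at SARS2 (−1.95), AARS1 (−1.53), VARS1 (−1.51), FARSA (−1.39), LARS2 (−1.32) and EARS2 (−1.31). SARS2 was not called at D16 without letter B or C. All of these were more negative in the heavy pool than in the cytoplasm.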

How the results depend on the processing

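Counts of called synthetases for heavy pool changes from D0 stayed within 1.5 times those reported under every alternative run. Leaving out a letter gave 19 to 23 at D1, 31 to 32 at D2, 30 to 31 at D7, 33 at D14 and 33 to 34 at D16, and total-count scaling 20, 31, 26, 34 and 31. Leaving out a letter gave 2 to 7 in the cytoplasm at D1, 11 to 17 at D2, 6 to 13 at D7, 1 to 10 at D14, 2 to 8 at D16, 2 to 7 from D7 to D14 and 12 to 27 over all days. It gave 0 to 8 in the heavy pool from D14 to D16, 16 to 20 between fractions at D1, and for the change in association 0 at D1 and D2, 7 to 18 at D14 and 16 to 23 at D16.

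With the replicate block in limma the counts were 14 in the cytoplasm at D1, 18 at D14 and 5 for association at D1. Among the 194 results for named synthetases it added WARS1 in the cytoplasm at D1 (adjusted p = 0.022) and KARS1 at D14 (0.0418) and D16 (0.032). It also added HARS1 for association at D1 (0.0463) and changed no other of those 194. Outside them it added SARS2 as given above and calls of other synthetases. The cytoplasmic count went from 11 to 13 at D16 and from 13 to 17 between D7 and D14. Fitting only the groups compared gave 17 in the cytoplasm at D1, 5 from D7 to D14 and 11 for association at D1. The filter at 50 gave 4 for association at D1. Total-count scaling gave 28 between fractions at D2 and 2 at D14, and for association 0 at D1, 0 at D2 and 9 at D14; upper-quartile scaling gave 0 at D2. For association, edgeR gave 0 at D1, and DESeq2 8 at D1 and 1 at D7. Without D14 B and D16 B the counts were 16 in the cytoplasm at D1 and at D14, and 10, 8 and 1 for association at D1, D2 and D7. Without D7 A they were 6 in the cytoplasm from D7 to D14 and 5 for association at D1, and without D2 C 5 and 8 for association at D1 and D2. The causes of these differences were not tested.

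The 194 results for named synthetases gave 2721 values under the alternatives, of which 2549 kept their direction and side of the threshold, 143 lost a call, 29 gained 1 and 0 reversed. Every library held 41.0 megareads or more; the scatter between 3 cytoplasmic libraries is larger than that in the heavy pool.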

Other observations

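The genes that prepare tRNAs for charging, which stand apart from the synthetases themselves, moved in the heavy pool too. Of 26 listed genes of tRNA maturation and export, 21 were called lower and 1 higher at D2 (median log2 change −0.69), against 34.5% and 30.4% of all genes. At D16 the counts were 19 and 2 (median −0.88), against 36.6% and 36.2%. ELAC2, which trims the 3′ end of precursor tRNAs, went from 15653, 16531 and 18488 normalised counts in A, B and C at D0 to 4780, 5262 and 5820 at D2 and 2807, 3008 and 2366 at D16, with limma log2 changes of −1.68 and −2.63. POP1, a subunit of RNase P, which trims the 5′ end, was at −1.50 and −2.26. The tRNA exporter XPOT (0.38) and the splicing endonuclease subunit TSEN15 (0.55) were called higher at D16. Of 8 mitochondrial translation factors 3 were called lower, near the share of all genes, and 1 higher at D2, and 4 and 1 at D16, with TUFM at −1.86, GFM1 at −1.51 and MTIF3 at 1.14 at D16.

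Interferon gamma response genes were read because WARS1 is known as another. GBP1, GBP2, GBP3, IDO1, CXCL9 and CXCL10 were asked for and not found in the table. Among those listed, TAP1 and SOCS1 rose in the heavy pool at D2, by 1.86 and 1.83, while IRF1 fell, by 0.86. On that day 30.4% of all genes were called higher and 34.5% lower. At D16 SOCS1 was at 2.74 and called higher (36.2% of all genes were), on the day when WARS1 was at −2.25.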
